A study of Homo sapiens with 6 samples.

Results

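The RAB genes encode small GTPases of the RAS superfamily. They were taken as every protein-coding gene of the count table whose symbol is RAB followed by a number and at most a letter and a further digit, which gave 60 of the 29845 genes. Expression was measured by polyA RNA-seq in A549, a human lung epithelial cancer cell line. One group of 3 libraries came from cells carrying a control plasmid without an insert (control), and the other group of 3 came from cells transfected with a plasmid for FLAG-tagged TFAM, the mitochondrial transcription factor A (TFAM-OE). All 6 libraries came from the same line and all cells were transfected, so both groups carry a plasmid and no untransfected cells were analysed here. The study describes 3 biological replicates per group, and the labels do not say whether they were separate cultures, so p-values measure the spread between these libraries.

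A RAB protein switches between a GDP-bound form held in the cytosol by GDI and a GTP-bound form on a membrane. Exchange factors load GTP, GTPase-activating proteins (GAPs) end the active state, and the active RAB recruits effectors such as tethers and motor adaptors. Lipid tails, added by RAB geranylgeranyl transferase with the help of a RAB escort protein, anchor the GTPase. Different RABs mark different steps of vesicle traffic, among them ER to Golgi transport, early and late endosomes, recycling and regulated secretion. RAB26 is best known from secretory granules of exocrine cells and from synaptic vesicles, where it directs vesicles to autophagy.

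The counts summed to between 26650854 and 37321956 reads per library. TFAM itself had 73.0 ± 2.98 CPM (SD, n = 3, reads scaled to a common depth by TMM) in the control libraries and 77.4 ± 5.64 CPM in the others, which did not pass edgeR's test (log2 fold change 0.08, standard error or SE 0.10, 95% interval -0.13 to 0.30, adjusted p = 0.626). The paper checked the overexpression at the protein level, by western blot for the FLAG tag, and protein was not measured here. The second group is called by its label because its TFAM mRNA did not differ by this test. Every direction below is that of the second group relative to the control. Of 5 epithelial markers, 4 were above 1 CPM in every library. EPCAM ranged from 0.336 to 0.566 CPM in the control and from 0.715 to 1.07 CPM in the second group, and no marker of type II pneumocytes, the alveolar cells that make surfactant, reached 1 CPM in every library. Summed leukocyte markers ranged from 3.01 to 3.70 CPM in the control and from 0.967 to 1.73 CPM in those labelled TFAM-OE, nearly all of it CD68, with PTPRC at or near 0. CD68 alone had 3.01, 3.66 and 3.08 CPM in the control libraries and 1.50, 1.73 and 0.933 CPM in the second group. Since every library is of the A549 line, this is described as a difference in CD68 and not in leukocyte number. Fewer A549 cells expressing CD68 and less CD68 RNA per cell cannot be told apart in bulk RNA. The part of this difference in the RAB values was not tested.

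Most RAB genes were expressed in A549 cells, and a small number of members made up most of the RAB transcript. By FPKM, which corrects for transcript length and so allows genes to be compared, 41 of the 60 members exceeded 1 in every library. The sum over all members was 956.8 to 1016 FPKM per library and did not separate the groups. The 10 members of highest mean took 66.5% to 70.1% of that sum. RAB34, a GTPase of lysosome positioning and ciliogenesis, was first with 89.63, 102.2 and 106.4 FPKM in the control libraries and 136.5, 129.2 and 112.0 FPKM in those labelled TFAM-OE. After it came RAB1B (96.2 FPKM over all libraries) and RAB1A (63.5), which act between ER and Golgi, RAB10 (81.3) in exocytosis, RAB5C (80.6) on early endosomes, RAB7A (68.9) on late endosomes, RAB13 (52.9) at tight junctions, RAB35 (48.4) and RAB11B (28.1) in recycling, and RAB32 (41.7) on lysosome-related organelles. In order of mean FPKM, neighbours among the top 10 kept their order within every library, apart from RAB10. RAB10 changed places with RAB1B and with RAB5C between libraries. Taken over all 6 libraries, the ranges of the top 10 were apart for 2 of 9 neighbouring pairs, RAB1A above RAB13 and RAB32 above RAB11B. Over all members this held for 3 of 59 pairs. Exons of 31 members overlap those of another gene, and 13 members share over 20% of their exonic bases. Among the top 10 these include RAB1B (30.2%), RAB5C (28.8%), RAB13 (24.8%) and RAB1A (22.9%). Reads from such overlaps may be shared, and their part in these levels was not tested.

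At the other end, 16 members had a mean FPKM below 1 and 7 had a mean below 10 reads over the 6 libraries, the minimum for a test. These 7 were RAB9B, RAB40A, RAB41, RAB17, RAB44, RAB25 and RAB6C, with means from 4.67 reads for RAB9B to 0.167 for RAB6C, which had 1 read in all. RAB25 and RAB17, known from polarised epithelia, had at most 2 and 3 reads in a library. At so few reads no difference between groups was detectable. RAB26 was 40th and RAB37 52nd in the order.

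**Figure D1:**
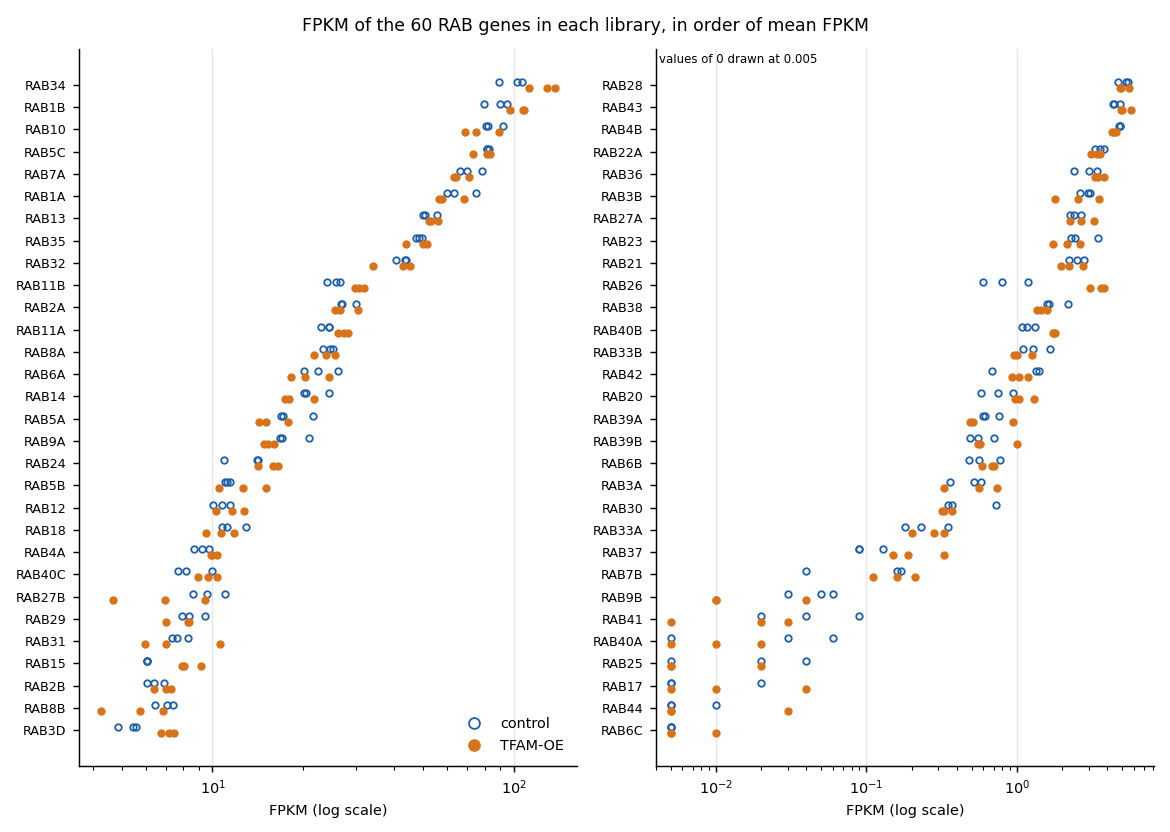
FPKM (log scale) of the 60 RAB genes in each library, ordered by mean FPKM from top left to bottom right. Open circles are the 3 control libraries and filled circles the 3 libraries labelled TFAM-OE, and values of 0 are drawn at 0.005. RAB34 is highest, most genes have overlapping groups, and RAB26 is the gene whose groups lie furthest apart among those above 0.5 FPKM.

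In the comparison of the libraries labelled TFAM-OE with the control, 4 RAB genes were higher and none was lower. RAB26 rose about 4-fold. RAB15, RAB40B and RAB3D rose by less than 2-fold. The other 49 tested members did not pass the test. The test was edgeR's quasi-likelihood test, adjusted by the Benjamini-Hochberg method over the 16472 genes with a mean of at least 10 reads, 53 of them RAB genes. The share called, 7.55%, was close to the 8.4% of all genes tested (3.52% higher and 4.88% lower). With a change of at least 2-fold as well, RAB26 alone was called, beside 2.54% of all genes tested (0.449% higher and 2.09% lower). The median log2 fold change of the 53 members was 0.02 and that of all genes tested was -0.01.

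The count of 4 rested on the libraries used. It was 1 (RAB26) without control replicate 1, control replicate 2 or TFAM-OE replicate 2, it was 2 without control replicate 3, 5 without TFAM-OE replicate 1, and 9 (7 higher and 2 lower) without TFAM-OE replicate 3. With an offset for transcript length it was 8, of which 7 were higher and 1 lower. The share called of all genes tested moved as well. It was 2.09% without control replicate 1, 1.82% without control replicate 2 and 2.11% without TFAM-OE replicate 2. Without control replicate 3 it was 7.27%, without TFAM-OE replicate 1 10.4%, and without TFAM-OE replicate 3 19.3%. With the length offset, 15.6% of all genes were called.

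**Figure D2:**
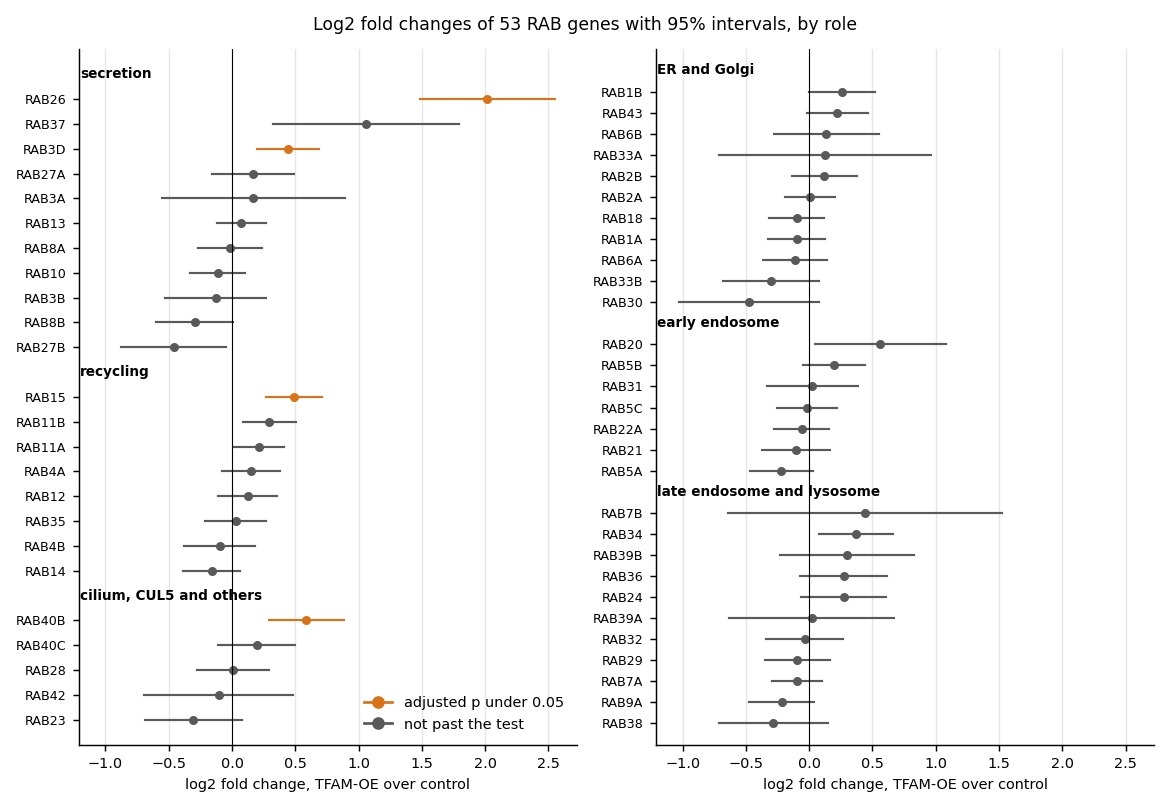
Log2 fold change (libraries labelled TFAM-OE over control) of the 53 tested RAB genes with 95% intervals from edgeR, grouped by role. Orange marks the 4 genes with adjusted p below 0.05, and RAB26 at 2.02 is the only one whose interval lies wholly above 1.

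RAB26 (ENSG00000167964.12, plus strand of chr16:2140803-2154165, GRCh38) had 57, 35 and 97 reads in the control group and 280, 248 and 229 reads in those labelled TFAM-OE. Scaled for depth, these were 1.70, 1.31 and 2.65 CPM against 8.77, 6.82 and 7.63 CPM. The groups did not overlap, and the lowest library labelled TFAM-OE was above the highest control library by more than the range within either group. The mean rose from 1.88 ± 0.689 to 7.74 ± 0.980 CPM (SD, n = 3). This was a log2 fold change of 2.02 (SE 0.24, 95% interval 1.48 to 2.55, adjusted p = 0.0014 by edgeR). In FPKM the level went from 0.80, 0.60 and 1.19 to 3.79, 3.06 and 3.65, so RAB26 remained a low-abundance member in both groups. RAB26 had been chosen with its value in these data known.

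Around RAB26, 13 annotated genes start within 50 kb of its start. The count table held 9 of them and 3 had enough reads for the test. TRAF7, an E3 ubiquitin ligase that starts 14895 bases downstream, had 91.97, 114.6 and 129.8 CPM in the control libraries and 185.8, 171.7 and 157.1 CPM in those labelled TFAM-OE. Its groups did not overlap, and the log2 fold change was 0.61 (SE 0.13, adjusted p = 0.0222 by edgeR), although the adjusted p was 0.0843 without control replicate 1, 0.0979 without control replicate 2 and 0.0985 without TFAM-OE replicate 2. PKD1, the polycystin gene on the other side, had a log2 fold change of -0.12 (adjusted p = 0.435) and the long non-coding RNA SNHG19 one of 0.09 (adjusted p = 0.663). No annotated exon of another gene overlaps those of RAB26.

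RAB37, a close relative of RAB26 that is also found on secretory granules, was a scarce transcript with 16, 13 and 26 reads in the control group and 27, 38 and 50 in those labelled TFAM-OE. The CPM values were 0.477, 0.486 and 0.710 against 0.846, 1.05 and 1.67. All 3 control values were below all 3 others, but the spread within the second group was wide. The log2 fold change was 1.06 (SE 0.33, 95% interval 0.33 to 1.80) and did not pass the test (adjusted p = 0.0759 by edgeR). The adjusted p was 0.0135 when every gene with a read was fitted, 0.0237 by edgeR's exact test, and 0.0306 without TFAM-OE replicate 1.

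Among the other secretory RABs, RAB3D, which sits on the zymogen and secretory granules of exocrine and mast cells, passed the test. It (ENSG00000105514.7, chromosome 19, minus strand) had 24.4, 28.4 and 29.5 CPM in the control libraries and 37.1, 37.9 and 37.0 CPM in those labelled TFAM-OE. The second group was tightly placed above the first, with a log2 fold change of 0.44 (SE 0.11, adjusted p = 0.0369 by edgeR). The call was lost without control replicate 1 (adjusted p = 0.142), control replicate 2 (0.122), control replicate 3 (0.0521) or TFAM-OE replicate 2 (0.172). RAB3D shares 144 exonic bases on its own strand with TMEM205, a membrane protein gene that had a log2 fold change of 0.45 (adjusted p = 0.0326, and 0.139, 0.121, 0.0551 and 0.157 without control replicates 1, 2 and 3 and TFAM-OE replicate 2), and 906 bases, 20.7% of its exonic length, with a long non-coding RNA on the opposite strand that stayed below 0.5 CPM. The library kit keeps strand, but whether counting used it is not stated in those sources, and reads from these overlaps may be shared.

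RAB27B, which docks granules and multivesicular bodies at the plasma membrane, had the only unadjusted p below 0.05 among members that were lower. Its values were 91.3, 82.4 and 75.0 CPM in the control libraries and 42.5, 60.9 and 77.4 CPM in those labelled TFAM-OE. The groups overlapped, since TFAM-OE replicate 3 lay within the control range and TFAM-OE replicate 1 was far below it. The log2 fold change of -0.46 (SE 0.19) did not pass the test (adjusted p = 0.156), and the adjusted p was 0.0071 without TFAM-OE replicate 3, 0.0055 when every gene with a read was fitted, 0.0466 with the offset for transcript length and 0.0462 with offsets for GC content and length. The related RAB27A, at 10.6 ± 1.02 and 11.9 ± 1.62 CPM (SD, n = 3), had a log2 fold change of 0.17 (adjusted p = 0.4999). RAB8A, RAB8B, RAB10 and RAB13, which carry cargo to the plasma membrane in epithelia, and RAB3A and RAB3B did not pass the test either, with log2 fold changes from -0.30 for RAB8B to 0.17 for RAB3A. In all, 2 of the 11 tested secretory members were called, both higher, where 3.52% of all genes tested were higher. Nothing is read from this count, since RAB26 was chosen with its value known.

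**Figure D3:**
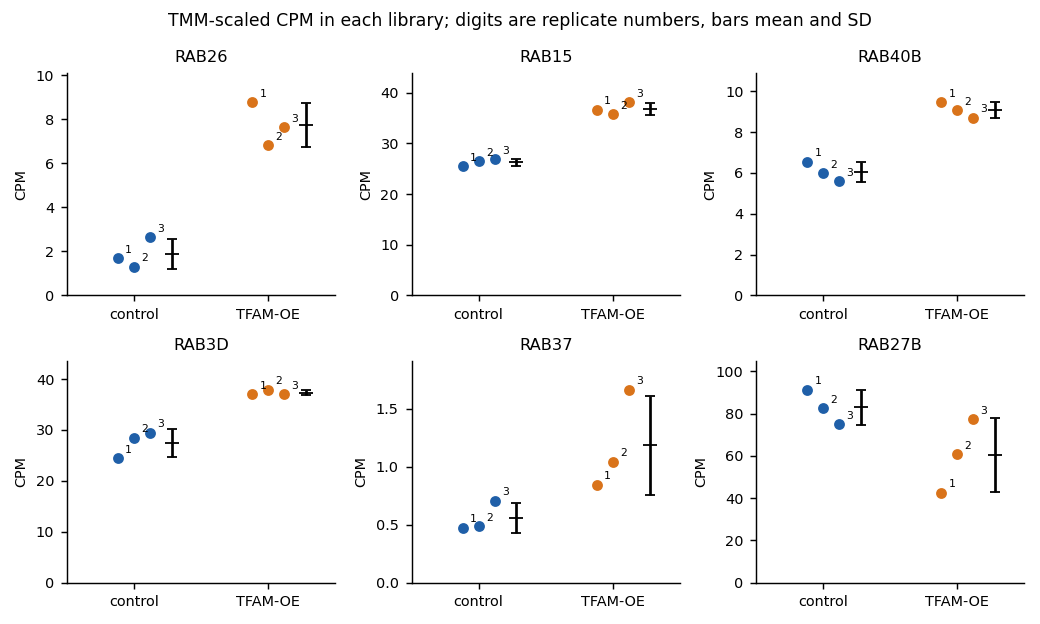
CPM after TMM scaling in each library for RAB26, RAB15, RAB40B, RAB3D, RAB37 and RAB27B. Points carry the replicate number, the bars give the mean and SD of 3 libraries, and each panel starts at 0. The groups are apart in all panels but that of RAB27B, where TFAM-OE replicate 3 lies within the control range.

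Of the 8 tested members of the recycling group, RAB15 was called, where 8.4% of all genes tested were called. RAB15, which slows transport of the transferrin receptor through early and recycling endosomes (ENSG00000139998.14, chromosome 14, minus strand), had 25.4, 26.4 and 26.9 CPM in the control libraries and 36.6, 35.8 and 38.1 CPM in those labelled TFAM-OE. Both groups were tight and did not overlap. The log2 fold change was 0.49 (SE 0.10, adjusted p = 0.0177 by edgeR), and the adjusted p rose to 0.0829 without control replicate 1, 0.0904 without control replicate 2 and 0.0963 without TFAM-OE replicate 2.

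RAB11A and RAB11B, the general recycling endosome GTPases, each had higher values in all 3 libraries labelled TFAM-OE but missed the threshold. RAB11B had 57.6, 65.9 and 65.2 CPM against 78.1, 77.8 and 75.5 CPM, a log2 fold change of 0.29 (adjusted p = 0.0839, and 0.0401 without TFAM-OE replicate 3). RAB11A had 136.6, 132.9 and 143.9 CPM against 168.2, 154.5 and 156.2 CPM, a log2 fold change of 0.21 (adjusted p = 0.168). Their transcripts were nearly balanced in FPKM, with RAB11B at 51.6% ± 2.03 of the pair in the control and 53.1% ± 1.01 in those labelled TFAM-OE (SD, n = 3). RAB4A, RAB4B, RAB12, RAB14 and RAB35 had log2 fold changes between -0.16 and 0.15 and did not pass the test.

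RAB40B was the called gene among 5 tested members with other roles, beside 8.4% of all genes tested. It carries a SOCS box, through which it joins a CUL5 ubiquitin ligase, and is known in the secretion of matrix proteases. RAB40B (ENSG00000141542.10, chromosome 17, minus strand) had 6.55, 5.98 and 5.60 CPM in the control libraries and 9.46, 9.08 and 8.70 CPM in those labelled TFAM-OE. The groups did not overlap and their SDs, 0.483 and 0.382 CPM, were small beside the difference, a log2 fold change of 0.59 (SE 0.13, adjusted p = 0.0280 by edgeR). The adjusted p was 0.0702, 0.121 and 0.0765 without control replicates 1, 2 and 3 and 0.129 without TFAM-OE replicate 2. On FPKM values by limma it was 0.0600 with a pseudocount of 0.1 and 0.0503 with 1. RAB40C, the more abundant relative at 9.12 FPKM against 1.48 FPKM for RAB40B, had a log2 fold change of 0.20 (adjusted p = 0.402). RAB23, a negative regulator of Hedgehog signalling, had one of -0.31 (adjusted p = 0.294), and 57.8% of its exonic bases are shared with BAG2 on the opposite strand. RAB28 (0.01) and RAB42 (-0.10) did not pass the test.

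No member was called among 11 tested RABs of the ER and Golgi, 7 of the early endosome and 11 of the late endosome and lysosome. Beside the 8.4% of all genes tested that were called, role groups this small hold too few members. Nothing about a role is therefore read from their counts. In the first group, RAB1B had a log2 fold change of 0.26 (adjusted p = 0.194) and RAB1A one of -0.10 (adjusted p = 0.566). The share of RAB1B in the pair by FPKM was 51.5%, 59.9% and 60.1% in the control libraries and 65.6%, 65.0% and 58.8% in those labelled TFAM-OE, so the groups overlapped. RAB43 was higher in all 3 libraries labelled TFAM-OE (log2 fold change 0.22, adjusted p = 0.225), and 79.3% of its exonic bases belong also to the readthrough gene ISY1-RAB43. RAB30 had 9.15, 4.82 and 4.69 CPM against 4.48, 4.35 and 4.60 CPM, and control replicate 1 alone set most of its log2 fold change of -0.48 (adjusted p = 0.260), which was -0.08 without that library. The others, RAB2A, RAB2B, RAB6A, RAB6B, RAB18, RAB33A and RAB33B, had log2 fold changes between -0.30 and 0.14.

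On early endosomes, the RAB5 family was led by RAB5C, with 73.4% ± 1.62 of the family FPKM in the control and 73.6% ± 4.16 in those labelled TFAM-OE (SD, n = 3). RAB5C shares 28.8% of its exonic bases on its own strand with ENSG00000267261, a protein-coding gene with a mean of 157 CPM in the control. Reads from this overlap may be shared. The log2 fold changes were -0.02 for RAB5C, -0.22 for RAB5A and 0.20 for RAB5B, with adjusted p from 0.246 to 0.935. RAB21, RAB22A and RAB31 lay between -0.11 and 0.02. RAB20, known on endosomes and phagosomes, had 1.64, 1.05 and 1.37 CPM against 1.85, 2.39 and 1.77 CPM, a log2 fold change of 0.56 with groups apart that did not pass the test (adjusted p = 0.162). On late endosomes and lysosomes, RAB7A had a log2 fold change of -0.09 (adjusted p = 0.547) and RAB34 one of 0.37 (adjusted p = 0.114). For RAB34 the adjusted p was 0.0097 without TFAM-OE replicate 3, 0.0223 when every gene with a read was fitted, 0.0370 with the offset for transcript length and 0.0340 with both offsets. RAB24, an autophagy GTPase at 0.27 (adjusted p = 0.287), shares 44.8% of its exonic bases with MXD3. The others of this group, RAB7B, RAB9A, RAB29, RAB32, RAB36, RAB38, RAB39A and RAB39B, lay between -0.29 and 0.44, and RAB7B at the upper end had 5 to 23 reads a library.

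Counted by rank alone, 12 members had all 3 libraries labelled TFAM-OE above the control range and 2, RAB8B and RAB30, had all 3 below it, where 15.8% and 15.9% of all genes tested were, 31.8% together. An unadjusted p below 0.05 was reached by 10 members that were higher and 1 that was lower, where 12.2% of all genes tested were higher and 13.4% lower at that level, 25.6% together. Within groups, the coefficient of variation of the tested members was 9.01% in the control at the median and 10.1% in the second group, beside 9.996% and 13.5% for all genes tested.

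The direction of the RAB genes varied with their base composition. Of the 24 tested members with at least 50% GC in the canonical GENCODE transcript, 19 had a positive log2 fold change, with a median of 0.24. Of the 29 members with less, 11 were positive, with a median of -0.10. Over all genes with a value the same split was weaker, with 58.4% positive of 7900 genes of at least 50% GC and 40.1% positive of 8365 others. That set also holds noncoding genes and many genes of few reads. A set matched to the RAB genes in gene type and reads was not compared, so the relation is not shown to be particular to them. Spearman's rho between log2 fold change and GC content was 0.66 across the 53 RAB genes and 0.26 across 16265 genes, where the genes share the same 6 libraries and are not replicates. With an offset for GC content in the fit, rho across the RAB genes was 0.38, 8 members changed sign, among them RAB1A, RAB6A, RAB10, RAB18 and RAB21, all with log2 fold changes between -0.11 and -0.01 before the offset. The number of members that passed the test was 4 with this offset too, and RAB26 stood at 1.93 (adjusted p = 0.0014). Library preparation and the cells' own change cannot be told apart as sources of this relation.

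**Figure D4:**
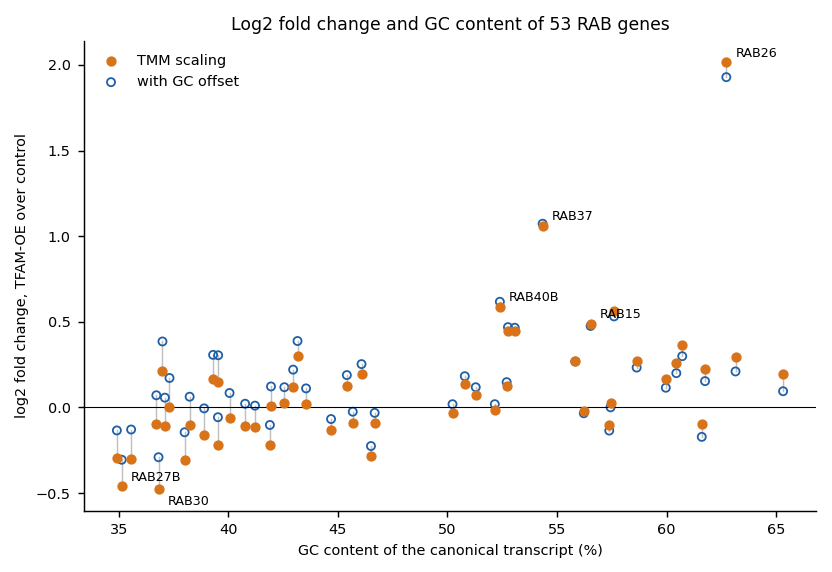
Log2 fold change (libraries labelled TFAM-OE over control) of 53 RAB genes against the GC content (%) of the canonical transcript. Filled points use TMM scaling, open points add an offset for GC content, and grey lines join the values of 1 gene. Members below 50% GC lie mostly under 0 before the offset and around 0 after it, while RAB26 moves from 2.02 to 1.93.

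Base composition was also described just upstream of the start sites, and its relation to the log2 fold changes was not tested. RefSeq promoter windows on GRCh38.p14 matched 47 of the 60 members, with 68 windows in all. In the 250 bases before the start, members had a median GC content of 64.2% against 58.0% for all 35116 windows. All windows here include those of genes that were not tested. A GC box, searched as GGGCGG or CCGCCC (each the reverse complement of the other), was found in 72.1% of the members' windows and 42.6% of all windows. An E-box (CANNTG, N being any base) was also searched, and was found in 51.5% of the members' windows and 61.8% of all windows. Neither share was adjusted for the GC content of the windows. The windows of 2 called members with an entry, RAB3D and RAB40B, and of the RAB11 pair are printed 5′ to 3′ with GC boxes in capitals, to show how much these start regions differ in content.
RAB3D, minus strand of chr19:11339658-11339907: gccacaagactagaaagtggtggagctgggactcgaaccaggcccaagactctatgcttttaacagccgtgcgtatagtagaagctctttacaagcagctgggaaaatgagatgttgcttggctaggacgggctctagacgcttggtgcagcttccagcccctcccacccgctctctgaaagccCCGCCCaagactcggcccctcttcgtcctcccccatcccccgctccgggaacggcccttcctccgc
RAB40B, minus strand of chr17:82698699-82698948: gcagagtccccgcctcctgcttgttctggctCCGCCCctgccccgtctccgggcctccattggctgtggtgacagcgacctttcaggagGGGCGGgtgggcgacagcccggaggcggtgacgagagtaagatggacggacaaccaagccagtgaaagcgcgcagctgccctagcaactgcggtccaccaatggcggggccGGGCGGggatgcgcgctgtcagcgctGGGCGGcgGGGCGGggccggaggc
RAB11B, plus strand of chr19:8390110-8390359: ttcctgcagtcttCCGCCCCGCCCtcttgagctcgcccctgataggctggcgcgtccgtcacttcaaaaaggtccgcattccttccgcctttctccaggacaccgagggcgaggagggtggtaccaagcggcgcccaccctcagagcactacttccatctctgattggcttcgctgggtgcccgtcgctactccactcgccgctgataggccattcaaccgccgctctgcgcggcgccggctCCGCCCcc
RAB11A, plus strand of chr15:65869241-65869490: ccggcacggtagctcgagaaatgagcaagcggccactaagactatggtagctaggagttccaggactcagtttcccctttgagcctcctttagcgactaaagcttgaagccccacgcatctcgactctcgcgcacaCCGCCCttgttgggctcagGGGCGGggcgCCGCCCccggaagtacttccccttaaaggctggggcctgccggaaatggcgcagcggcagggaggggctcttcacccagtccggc

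RAB40B had 5 GC boxes and 71.2% GC in this window, and RAB3D had 1 GC box and 59.6% GC, beside log2 fold changes of 0.59 and 0.44. RAB11B, with 65.6% GC, and RAB11A, with 62.8% GC, had 3 GC boxes each, beside log2 fold changes of 0.29 and 0.21. These are below that of RAB3D with its 1 box. The first 2 boxes of RAB11B overlap by 1 base. The RefSeq starts of RAB3D, RAB11A and RAB11B lie inside the longer GENCODE spans of these genes. A match to these letters is a description of the sequence and not a bound site.

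The genes that load, retrieve and read RAB proteins were examined as a list of 159 genes, of which 156 were in the count table and 151 were tested. In this list, 6 genes were higher and 6 lower, 7.95% of those tested and close to the 8.4% of all genes tested (3.52% higher and 4.88% lower). The median log2 fold change was 0.00. One gene, UNC13D, passed with at least 2-fold. UNC13D, or Munc13-4, is a RAB27 effector that primes granules for release. It had 1.85, 2.43 and 2.32 CPM in the control libraries and 4.83, 4.43 and 4.53 CPM in those labelled TFAM-OE. The groups were far apart, with a log2 fold change of 1.07 (SE 0.17, adjusted p = 0.0063 by edgeR), and no left-out library ended the call.

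The other genes called higher were the RAB13 effector MICALL2 (log2 fold change 0.66), the GAP SGSM3 (0.96), the TRAPP subunits TRAPPC1 (0.51) and TRAPPC9 (0.45), and EHBP1L1 (0.57), an effector of RAB8. Those called lower were CHML (-0.84), the second RAB escort protein, RABGGTB (-0.44), the catalytic subunit of geranylgeranyl transferase, the GAPs TBC1D7 (-0.70), which is also a subunit of the TSC complex, and RAB3GAP1 (-0.51), and the effectors RABEP1 (-0.54) of RAB5 and PLEKHM1 (-0.42) of RAB7. Adjusted p for these ranged from 0.0086 for MICALL2 to 0.0476 for PLEKHM1. Of the 10 genes of prenylation and GDI, 2 were therefore lower and none higher, where 4.88% of all genes tested were lower, and nothing is read from 2 genes. With the offset for GC content RABGGTB (adjusted p = 0.103) and EHBP1L1 (adjusted p = 0.0691) did not pass, and with the offset for transcript length PLEKHM1 did not (adjusted p = 0.0639). CHM, the first escort protein, had a log2 fold change of -0.29 (adjusted p = 0.311) and GDI2, the more abundant GDI, one of 0.19 (adjusted p = 0.254). The 2 partners of RAB26 on the list, its exchange factor PLEKHG5 (-0.16, adjusted p = 0.524) and its effector ATG16L1 (-0.01, adjusted p = 0.977), did not pass the test. The count of 12 was 1 without control replicate 1, control replicate 2 or TFAM-OE replicate 2, 7 without control replicate 3, and 35 (10 higher and 25 lower) without TFAM-OE replicate 3. It was 6 (5 higher and 1 lower) when scaled by library size alone, and 15 (10 higher and 5 lower) with the offset for GC content. The share called of all genes moved as well. It was 2.09%, 1.82% and 2.11% without control replicate 1, control replicate 2 and TFAM-OE replicate 2. Without control replicate 3 it was 7.27% and without TFAM-OE replicate 3 19.3%. By library size alone it was 7.21%, and with the offset for GC content 11.6%.

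**Figure D5:**
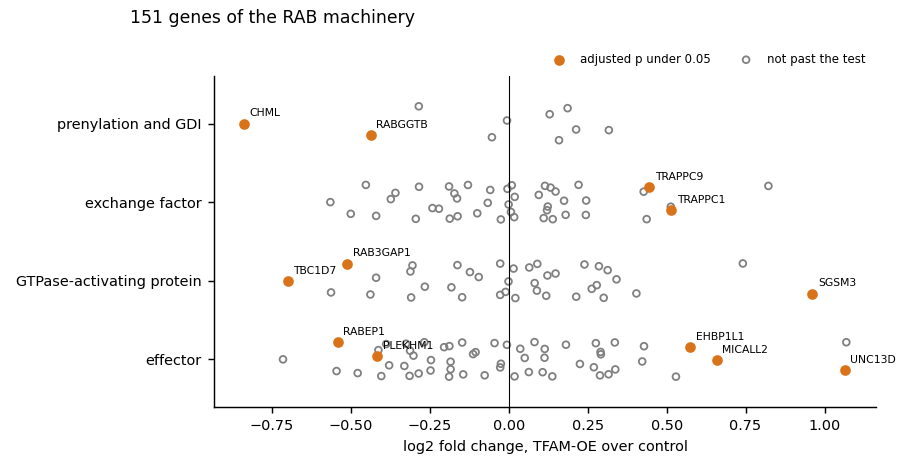
Log2 fold change (libraries labelled TFAM-OE over control) of 151 tested genes of the RAB machinery, in 4 rows by class, with vertical scatter for legibility only. Orange points are the 12 genes with adjusted p below 0.05, from CHML at -0.84 to UNC13D at 1.07.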

How the data were processed

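RNA-seq libraries of A549 cells (3 control, 3 TFAM-OE) were analysed. The authors trimmed reads with the FASTX-Toolkit, aligned them to GRCh38 with TopHat2 and used uniquely mapped reads. They deposited raw read counts per gene and FPKM values (fragments scaled to transcript length and mapped fragments). Which program counted the reads, with which annotation and strand setting, is not stated in those sources. Unused value columns numbered 0.

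Counts were tested with edgeR (4.0.16, R 4.3.3) by quasi-likelihood, two-sided, with TMM scaling, no covariate and Benjamini-Hochberg adjustment over 16472 genes with a mean of at least 10 reads over all libraries. Calls were made at an adjusted p below 0.05, with or without 2-fold. In simulated data with 200 changed genes, 5.43% of calls were false with the filter, which recovered 79% of 2-fold and 95% of 4-fold changes. When all genes with a read were fitted, 15% of calls were false, and 84% and 98% of these changes were recovered. All changed genes were drawn from those with a mean of at least 10 reads, so calls below that mean counted as false by construction. These rates therefore do not rank the fits. Genes were simulated independently of each other. CPM are TMM-scaled. Levels between genes are FPKM. Positions, GC content and transcript length came from GENCODE release 44, which held 97.2% of the genes.

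Alternatives were other scalings and filters, DESeq2 (1.42.0), edgeR's exact test, limma (3.58.1) with voom or on log2(FPKM + 0.1) and log2(FPKM + 1), a replicate block, each library left out, and, chosen after seeing the data, offsets for GC content and transcript length. The RAB genes and the lists were chosen with earlier results of these data known. Genes named in the text are members past the test, RAB26, RAB37, the 10 members of highest FPKM, those under 10 reads, machinery genes past the test, and genes near RAB26. Further members are named to describe their role group and were chosen after their values were seen.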

Additional observations from a re-analysis of the deposited data

How the results depend on the processing

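RAB26 passed the test under every alternative run, with log2 fold changes from 1.28 on log2(FPKM + 1), where low genes are compressed, to 2.35 without control replicate 3 (adjusted p up to 0.0160). The number of RAB genes called was 7 with no filter on low counts (6 higher, 1 lower), 8 with the offset for transcript length and 8 with offsets for GC content and length, and 1 to 9 when 1 library was left out. With at least 2-fold it was 2 with no filter, by edgeR's exact test and with the length offset, and 1 to 2 with a library left out. RAB37 passed the test with no filter (log2 fold change 1.07, adjusted p = 0.0135), by the exact test (1.06, adjusted p = 0.0237) and with the length offset (1.08, adjusted p = 0.0489), and ranged from 0.75 to 1.29 with a library left out. TFAM passed only with both offsets (0.27, adjusted p = 0.0466). The cause of these differences was not tested.

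The number of machinery genes called was 20 with no filter, 6 by library size alone, 6 on log2(FPKM + 0.1), 6 on log2(FPKM + 1), 24 with the length offset, 29 with both offsets, and 1 to 35 with a library left out. Over all genes tested, 1383 were called, and 2041 by DESeq2, 2221 by the exact test and 2519 with no filter. By library size alone 1187 were called, on log2(FPKM + 0.1) 1398 and on log2(FPKM + 1) 1393. With the offsets for GC content, for length and for both, 1892, 2535 and 2924 were called. With a library left out the number was 300 to 3183. 

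Deviations from the group means correlated at -0.30, 0.03 and -0.36 for libraries of the same number. The correlation was 0.33 for control replicate 1 with TFAM-OE replicate 3 and 0.33 for control replicate 3 with TFAM-OE replicate 1. The remaining combinations lay between -0.09 and 0.07. With 3 libraries per group the deviations cancel within a group, so these values cannot show whether libraries were prepared in pairs. With the replicate block, 1 RAB gene was called (RAB26, log2 fold change 2.07, adjusted p = 0.0078), 1 machinery gene, and 376 genes in all. Of 29 RAB, machinery and neighbouring genes followed one by one, none changed direction under any alternative. These genes were chosen with their values seen, many because they passed the test, so their kept direction is no measure of robustness. Over all 53 tested RAB genes, up to 8 changed sign under an alternative (8 with the offset for GC content and 8 without TFAM-OE replicate 3), and none of these passed the test there.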

Other observations

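RAB-like genes, which the symbol rule left out, had values of the same kind. RABL6 had 15.6 ± 0.778 FPKM in the control libraries and 16.6 ± 1.16 FPKM in the libraries labelled TFAM-OE (SD, n = 3), RABL3 5.69 ± 0.598 and 5.77 ± 0.266 FPKM, RABL2B 3.09 ± 0.252 and 3.68 ± 0.189 FPKM, and RABL2A 1.90 ± 0.106 and 1.67 ± 0.0643 FPKM. None passed the test, with adjusted p by edgeR from 0.197 for RABL2B to 0.850 for RABL3. RABL2A and RABL2B are near-identical copies, so uniquely mapped reads may divide unevenly between them. RAB40AL, RAB42P1 and RAB43P1 had means below 1 read per library.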
